A study of Homo sapiens with 6 samples.

Results

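The subunits of the TIP60 and SRCAP chromatin complexes were followed in a pooled knockdown screen of leukaemia cells under azacitidine (AZA), the nucleoside drug that traps DNA methyltransferases. Members were taken by gene symbol from the deposited counts, which gave 17 genes with 8 short hairpin RNAs each, 136 of the 7293 hairpins seen and 17 of the 912 genes targeted. SKK-1, an established line from an acute myeloid leukaemia that followed myelodysplastic syndrome, was transduced in 3 separate cultures with the lentiviral Epi9 pool and selected with puromycin. One portion of each culture stayed untreated and the other received 0.25 µM AZA every 2 days, and hairpin guide strands were amplified from genomic DNA at day 14. Both groups therefore carried the same pool, and they differed in AZA only. Hairpin counts cannot show cell identity or how far a target was knocked down. No count of the starting pool was used here, so a low level of a hairpin at harvest cannot be told apart from a low level at the start.

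The TIP60 complex joins the lysine acetyltransferase KAT5 to the remodelling ATPase EP400 and the scaffold TRRAP, and acetylates histone tails at promoters and at DNA breaks. The SRCAP complex exchanges histone H2A for the variant H2A.Z, with the ATPase SRCAP as its motor. Both complexes are built on the RUVBL1 and RUVBL2 ring and share YEATS4, DMAP1, VPS72 and ACTL6A, so that losing one shared subunit touches both activities.

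A hairpin is processed in the cell to a guide strand that pairs with the target transcript, most strictly through its seed, bases 2 to 8 from the 5′ end. The library table used here gives the guides of 47 member hairpins from 6 of the genes (ACTL6A, BRD8, C20orf20, DMAP1, EP400 and EPC1), and the guides of the other 89 hairpins are not printed. C20orf20 is the older symbol of MRGBP. The guides are 22 bases long, and all 47 matched a GENCODE 44 transcript of the named gene without mismatch, 35 in coding sequence and 12 in the 3′ UTR. None had a perfect site in a transcript of another gene. Their GC content ran from 27.3% to 54.5% with a median of 40.9%, and all 47 start with T. Guides are written 5′ to 3′ with the seed in capitals, and sites are given on GRCh38.

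The first set shows the members with sequence that stood highest or lowest by the test for single hairpins.
C20orf20.906: tCAATATCtgagctggaccgat
C20orf20.1607: tTTTGTGCtttaatgttcgcag
EP400.3275: tGGAGCATtaaacttgaccgag
ACTL6A.232: tTAGTATCtatgtagtaggtgg
Both C20orf20 guides pair with the 3′ UTR in exon 5 on the plus strand, at chr20:62799863-62799884 and chr20:62800564-62800585. The EP400.3275 site is coding and crosses the junction of exons 14 and 15, within chr12:132006299-132006717 on the plus strand. The ACTL6A.232 site is coding, in exon 3 at chr3:179570161-179570182 on the plus strand.

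The second set is all 8 guides against BRD8, the member gene with the smallest p.
BRD8.367: tTTCTTTAgttcttcaactcgc
BRD8.403: tAGCCGTCtatatctctcctgg
BRD8.418: tTCTGCATctctctttagccgt
BRD8.481: tTTCGTTGcaatgtcattgcaa
BRD8.1129: tTCAGGATgatcatctaccttg
BRD8.1657: tGACATTTcaaacttgtgctga
BRD8.1747: tTCACTGAcaccatcttcctcc
BRD8.2053: tATGTCATctgtaacaggctgc
All 8 sites are coding and lie on the minus strand of chromosome 5, between exon 5 (BRD8.367, chr5:138171067-138171088) and exon 17 (BRD8.2053, chr5:138161825-138161846). BRD8.481 crosses the junction of exons 6 and 7, within chr5:138170406-138170849, and BRD8.1747 lies in exon 15 at chr5:138163303-138163324.

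The third set holds guides whose sites overlap, by 2 to 19 of 22 bases, and which carry different seeds.
C20orf20.1062: tATTGCTTgctaatccgaggtt
C20orf20.1065: tTTTATTGcttgctaatccgag
C20orf20.1598: tTAATGTTcgcagtcacacgaa
DMAP1.709: tATCTTAAggtctgtgcctggc
DMAP1.715: tACTGGTAtcttaaggtctgtg
EPC1.2409: tAACAAAGctgaacctgccgtt
EPC1.2419: tTGAAGGCtgtaacaaagctga
EP400.2699: tAGTTTTAtttccacaacctgt
EP400.2719: tTTTCTTCtaattctactcgta
C20orf20.1062 and C20orf20.1065 lie in the 3′ UTR at chr20:62800019-62800040 and chr20:62800022-62800043, and C20orf20.1598 lies there at chr20:62800555-62800576, where it shares 13 bases with C20orf20.1607. The DMAP1 sites are in coding exon 5 at chr1:44218659-44218680 and chr1:44218665-44218686 on the plus strand. The EPC1 sites are in coding exon 13 at chr10:32271832-32271853 and chr10:32271822-32271843 on the minus strand. EP400.2699 crosses from exon 8 to exon 9, within chr12:131990101-131990653, and EP400.2719 follows in exon 9 at chr12:131990652-131990673, with 2 shared bases.

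Across genes, 45 different seeds were found among the 47 guides. The seed ATCTTAA was held by DMAP1.709 and EP400.12165, and the seed AGTGTTC by ACTL6A.445 and EPC1.2178.
EP400.12165: tATCTTAAaacacaacagctaa
ACTL6A.445: tAGTGTTCaaacattaactctg
EPC1.2178: tAGTGTTCtttctaaaccctgt
The log2 differences (AZA over untreated) in cultures 1, 2 and 3 were -0.43, 0.85 and -2.15 for DMAP1.709 and 0.20, -1.37 and -1.23 for EP400.12165. They were -0.18, 0.72 and -0.94 for ACTL6A.445 and -1.32, -1.08 and 1.79 for EPC1.2178. None of the 4 hairpins moved one way in all 3 cultures.

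Libraries held 12292575 to 22587662 counts, and levels are given as CPM, the count scaled to a common library total. The member hairpins made up 1.86% of all hairpins and 1.57% to 1.85% of the counts. Their median level was 82.6 to 90.1 CPM in the untreated libraries, against 97.8 to 99.98 CPM over all hairpins. In the AZA libraries it was 89.5 to 102 CPM, against 109.8 to 111 CPM. Low libraries were common among the members, since 39 of 136 (28.7%) were under 10 CPM in at least 1 untreated library, against 21.2% of all tested hairpins. For AZA libraries the corresponding shares were 14.7% and 5.32%.

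No member hairpin changed under AZA by edgeR's quasi-likelihood test with Benjamini-Hochberg adjustment over all 7262 hairpins tested, at an adjusted p below 0.05. In the pool 5 hairpins passed, a background of 0.0689%. At an unadjusted p below 0.05 there were 7 members, 6 of them lower and 1 higher, which is 5.15% against a background of 5.62%. Of the 408 such hairpins in the pool, 270 were lower and 138 higher, so the pool leaned the same way. The edgeR exact test called 0 members (background 0.179%), with 9 below an unadjusted p of 0.05 (6.62%, background 5.58%). The DESeq2 Wald test called 4 members (YEATS4.885, MORF4L1.576 and MORF4L1.547 lower, C20orf20.906 higher), or 2.94% against 1.86% of the pool.

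Direction over the members depended on the measure. By edgeR fold change 55 hairpins were above 0 and 81 below (40.4% above, background 45.1%). Differences were also taken within each culture as AZA minus untreated on log2 CPM after TMM scaling, a correction for library composition. The mean over the 3 cultures was above 0 for 69 of 136 hairpins (50.7%), against a background of 54.8%, with a median of 0.02 for the members and 0.10 for all hairpins. There were 14 members higher in all 3 cultures (10.3%, background 14.4%) and 21 lower in all 3 (15.4%, background 14.8%). All AZA libraries stood above all untreated libraries for 5 members (3.68%, background 6.62%), and below them for 10 (7.35%, background 6.6%). In the lower direction the shares were near those of the pool, and in the higher direction they were smaller.

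For genes, log2 CPM was averaged over the 8 hairpins and tested with limma, adjusted over all 912 genes. No member gene passed an adjusted p of 0.05, where 11 genes of the pool did (1.21%, all higher under AZA). Unadjusted p was below 0.05 for BRD8 and RUVBL2, both higher, which is 2 of 17 genes against a background of 14.9%. On this scale the median over all 912 genes was 0.25 higher in AZA, and 29.7% of the genes had a difference below 0. Scaling to library totals alone moved that median to 0.41 and that share to 16.4%. Of the member genes 4 of 17 (23.5%) were below 0, namely MORF4L1, MORF4L2, EPC2 and EPC1, and EPC1 turned to 0.09 with library totals. The member median was 0.31.

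The remodelling ATPases, SRCAP and EP400, differed little as genes. The SRCAP gene mean was 0.34 ± 0.30 (SE) higher in AZA on the log2 scale (limma adjusted p = 0.612), with 3 hairpins higher and 5 lower by mean difference (4 and 4 by edgeR fold change). SRCAP.2538 stood at 10.7, 1.50 and 3.56 CPM in untreated libraries 1 to 3 and at 31.9, 65.2 and 56.0 CPM in the AZA libraries. All 3 AZA libraries lay above the untreated ones, but the level was near the bottom of the pool in untreated cells, at percentile 2.71 of all tested hairpins, and the fold change of 3.14 ± 1.48 (SE, log2) had an edgeR adjusted p of 0.898. EP400 as a gene differed by 0.35 ± 0.35 (limma adjusted p = 0.679). EP400.3275 had 81.2, 54.0 and 13.6 CPM untreated and 241, 43.1 and 248 CPM under AZA. Its groups overlapped, because culture 2 was lower under AZA by 0.52 on the log2 scale whereas cultures 1 and 3 were higher (edgeR log2 fold change 1.68 ± 0.86, adjusted p = 0.898).

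TRRAP, the scaffold of the TIP60 complex, had a gene difference of 0.31 ± 0.38 (limma adjusted p = 0.747). TRRAP.5451 gave 21.7, 89.5 and 43.1 CPM untreated and 79.4, 265 and 171 CPM with AZA. The increase was alike in the 3 cultures (1.74, 1.37 and 1.82 on the log2 scale), while the cultures themselves differed in level, so that the groups overlapped. The edgeR log2 fold change was 1.56 ± 0.77 with an adjusted p of 0.898. TRRAP.941 was the opposite case, with every AZA library (71.3 to 80.0 CPM) below every untreated one (80.3 to 133 CPM).

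The AAA+ ATPases RUVBL1 and RUVBL2, which assemble into the ring at the core of both complexes and of the INO80 remodeller, stood low in the pool. The mean log2 CPM of the RUVBL1 hairpins in untreated cells was the lowest of all 912 genes (rank 1), at 2.60, 4.06 and 2.41 in the 3 libraries, and RUVBL2 was at rank 77 with 4.99, 4.54 and 5.26. Of their 16 hairpins 10 (62.5%) were under 10 CPM in at least 1 untreated library and 8 (50.0%) in at least 1 AZA library, against 21.2% and 5.32% of all hairpins. This is a description of levels at harvest, with no starting pool beside it.

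Under AZA the RUVBL1 mean was 5.01, 3.48 and 4.07, a difference of 1.16 ± 0.52 (limma adjusted p = 0.347). Cultures 1 and 3 were higher by 2.41 and 1.66 and culture 2 was lower by 0.58. In 7 of 8 hairpins the mean difference was above 0, but by edgeR fold change 5 were above 0 and 3 below. Of the 8 hairpins 7 had at least 1 library under 10 CPM. RUVBL1.988 had 0, 730 and 1 counts untreated and 332, 0 and 980 counts with AZA, so that in each culture 1 arm held 332 counts or more and the other held at most 1. RUVBL1.1337 had 3, 34 and 0 counts untreated and 332, 17 and 103 under AZA. RUVBL1.886 had 0, 1318 and 188 counts and then 70, 922 and 156.

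Of the other 5 RUVBL1 hairpins, RUVBL1.1671 had 468, 2 and 22 counts untreated and 231, 1112 and 180 with AZA. RUVBL1.1672, shifted by 1 base by the number in its name, was lower in all 3 cultures, from 101, 67.0 and 10.3 CPM to 66.0, 37.5 and 3.32 CPM. RUVBL1.1671 and RUVBL1.1672 thus had mean differences of 2.89 and -1.18. RUVBL1.485 had 63.5, 252 and 64.0 CPM untreated and 80.1, 134 and 140 CPM with AZA. RUVBL1.568 went from 39.9, 6.49 and 77.0 CPM to 87.6, 31.5 and 22.8 CPM. RUVBL1.905 went from 37.5, 22.6 and 43.1 CPM to 250, 8.37 and 81.6 CPM. The groups overlapped for all 8 RUVBL1 hairpins.

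RUVBL2 stood at a gene mean of 5.83, 5.79 and 5.37 with AZA, above all 3 untreated values, and differed by 0.74 ± 0.29 (limma adjusted p = 0.299). Its mean differences ran from -1.55 (RUVBL2.1272) to 4.65 (RUVBL2.744). RUVBL2.744 had 959, 0 and 0 counts untreated and 734, 1151 and 173 with AZA. RUVBL2.41 went from 44.2, 4.16 and 57.0 CPM to 140, 44.3 and 71.7 CPM and was the only RUVBL2 hairpin higher in all 3 cultures. RUVBL2.1440 went from 16.7, 4.49 and 81.7 CPM to 6.42, 60.0 and 84.2 CPM. Where the median over the hairpins replaced the mean, the difference was -0.05 for RUVBL2 and -0.0015 for RUVBL1.

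Of the 3 most abundant RUVBL2 hairpins 2 were lower in all 3 cultures after TMM scaling. RUVBL2.1452 was at 115, 145 and 113 CPM untreated and 108, 94.4 and 96.0 CPM with AZA, with no overlap. RUVBL2.1272 went from 93.7, 118 and 141 CPM to 101, 13.7 and 61.9 CPM, and its groups were separate after TMM scaling only. RUVBL2.51 went from 63.0, 364 and 90.3 CPM to 174, 185 and 168 CPM. The groups overlapped for RUVBL2.51 and for both hairpins that follow. RUVBL2.43 changed from 4.80, 67.1 and 74.9 CPM to 36.5, 75.0 and 14.6 CPM. RUVBL2.828 changed from 3.90, 55.7 and 56.2 CPM to 66.9, 50.1 and 19.7 CPM. No RUVBL1 or RUVBL2 hairpin reached an unadjusted p of 0.05.

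KAT5, the acetyltransferase itself, had a gene difference of 0.18 ± 0.32 (limma adjusted p = 0.838), with 4 hairpins higher and 4 lower by mean difference (3 and 5 by edgeR fold change). KAT5.388 was higher in every AZA library (84.9, 58.8 and 67.2 CPM) than in any untreated one (3.90, 32.0 and 20.4 CPM). KAT5.1436 was lower in every AZA library (130, 149 and 137 CPM) than in any untreated one (377, 173 and 154 CPM). Both had separate groups in opposite directions, and neither had an unadjusted edgeR p below 0.05.

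EPC1 and EPC2, the enhancer of polycomb proteins that hold KAT5 in its catalytic module, differed by -0.07 ± 0.35 and -0.23 ± 0.37 (limma adjusted p = 0.950 and 0.815). EPC2 had 4 hairpins lower in all 3 cultures and 1 higher. EPC2.1670 was at 197, 167 and 83.7 CPM untreated and 36.6, 35.6 and 70.7 CPM with AZA. Its groups did not overlap (edgeR log2 fold change -1.81 ± 0.70, adjusted p = 0.794). EPC2.799 stood apart in the other direction, at 127, 126 and 79.0 CPM and then 204, 188 and 232 CPM. For EPC1 no hairpin moved one way in all 3 cultures. ING3, a PHD finger protein that reads methylated histone tails, differed by 0.31 ± 0.32 (limma adjusted p = 0.693).

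Within the MRG group, MORF4L1 was the member gene furthest below 0. MORF4L1 and MORF4L2 are related MRG proteins, and C20orf20 is the subunit that binds them. The MORF4L1 mean was 6.68, 7.40 and 7.05 log2 CPM untreated and 6.04, 6.57 and 6.70 with AZA, lower in all 3 cultures by 0.64, 0.82 and 0.36. The groups overlapped slightly, since AZA replicate 3 stood just above untreated replicate 1, and the difference was -0.61 ± 0.30 (limma adjusted p = 0.390). Taken relative to the median of all genes the difference was -0.86. All 8 MORF4L1 hairpins had an edgeR fold change below 0, as did all hairpins of 10 of the 912 genes (1.1%). On the mean of log2 differences 7 of the 8 were below 0.

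MORF4L1.576 was among the most abundant members, at 456, 860 and 441 CPM untreated (percentile 98.9 of the pool) and 344, 295 and 258 CPM with AZA. MORF4L1.547 was at 103, 342 and 299 CPM untreated and 72.7, 80.2 and 110 CPM with AZA. Neither hairpin had overlapping groups after TMM scaling, and both were lower in all 3 cultures. The edgeR log2 fold changes were -1.14 ± 0.34 (adjusted p = 0.678) for MORF4L1.576 and -1.68 ± 0.56 (adjusted p = 0.740) for MORF4L1.547. DESeq2 gave adjusted p-values of 0.0189 and 0.0496.

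MORF4L2 had the highest level of the member genes, rank 902 of 912 from the lowest in untreated cells, and differed by -0.23 ± 0.25 (limma adjusted p = 0.704). MORF4L2.1118 was lower by a similar amount in each culture (-1.21, -0.91 and -1.03), from 375, 245 and 251 CPM to 177, 149 and 138 CPM. Its groups did not overlap (edgeR log2 fold change -1.07 ± 0.40, adjusted p = 0.772). MORF4L2.1117, shifted by 1 base by the number in its name, was at 189, 170 and 123 CPM untreated and 196, 253 and 223 CPM with AZA. By these name numbers, without a guide sequence at hand, the pair shared 21 of 22 target bases. The mean differences were -1.05 and 0.33.

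C20orf20 held the member hairpin with the smallest p in the higher direction. C20orf20.906 was at 0.407, 9.92 and 5.45 CPM untreated and 40.7, 91.8 and 141 CPM with AZA. It was higher in each culture, by 6.19, 3.00 and 4.50 on the log2 scale, and its groups were far apart, from a level at percentile 2.22 of the pool. The edgeR log2 fold change was 3.93 ± 1.38 (adjusted p = 0.751), and DESeq2 gave an adjusted p of 0.0223. C20orf20.1607 was lower in all 3 cultures, from 113, 344 and 878 CPM to 105, 154 and 263 CPM, with overlapping groups (-1.53 ± 0.63, edgeR adjusted p = 0.829). As a gene C20orf20 differed by 0.61 ± 0.62 (limma adjusted p = 0.684), and by -0.17 without untreated replicate 1.

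YEATS4, a reader of acylated histones, had a gene difference of 0.12 ± 0.29 (limma adjusted p = 0.887). YEATS4.885 was the member hairpin with the smallest p of all. It stood at 520, 326 and 579 CPM untreated and 282, 222 and 166 CPM with AZA, every AZA library being below every untreated one. The log2 fold change was -1.25 ± 0.35 by edgeR (adjusted p = 0.643), and DESeq2 gave an adjusted p of 0.0105. YEATS4.417 was also lower in all 3 cultures, by 0.26, 0.08 and 0.50, with overlapping groups. YEATS4.208 was higher in all 3 cultures, from 132, 60.3 and 34.9 CPM to 165, 145 and 119 CPM.

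BRD8, the bromodomain subunit of the TIP60 complex, had the smallest p of the member genes. Its mean was 5.85, 4.56 and 4.28 log2 CPM untreated and 6.09, 5.98 and 6.46 with AZA, higher in each culture by 0.23, 1.42 and 2.18. All AZA libraries lay above all untreated ones, and the difference was 1.28 ± 0.42 (limma adjusted p = 0.216). Without untreated replicate 1, the library closest to the AZA values, it was 1.77 and passed (limma adjusted p = 0.0257). With the median over the 8 hairpins in place of the mean it was 0.20.

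Of the BRD8 hairpins 5 were higher and 3 lower. BRD8.1747 carried the largest difference and had 965, 1 and 2 counts untreated and 577, 638 and 2548 counts with AZA. BRD8.481 went from 29.7, 3.99 and 4.28 CPM to 117, 27.4 and 99.4 CPM, higher in all 3 cultures (edgeR log2 fold change 2.54 ± 1.27, adjusted p = 0.898). BRD8.2053 went from 13.5, 6.38 and 45.0 CPM to 54.9, 44.8 and 73.8 CPM. These 3 were the lowest BRD8 hairpins in untreated cells, at percentiles 1.14, 5.58 and 10.2 of the pool. BRD8.367 was also higher in all 3 cultures, from 23.2, 93.1 and 10.3 CPM to 34.9, 111 and 224 CPM.

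The more abundant BRD8 hairpins did not move with the mean. BRD8.1129 was at 133, 237 and 117 CPM untreated and 180, 170 and 161 CPM with AZA. BRD8.418 was at 221, 117 and 45.5 CPM and then 123, 18.4 and 64.3 CPM. BRD8.403 was at 72.8, 83.3 and 114 CPM and then 48.8, 153 and 57.8 CPM. BRD8.1657, which lies between these and the low hairpins, was at 59.9, 55.6 and 49.7 CPM and then 94.1, 182 and 51.0 CPM. No BRD8 hairpin had separate groups or an unadjusted edgeR p below 0.05.

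Among the shared structural and H2A.Z subunits, no gene passed the test. DMAP1 differed by 0.41 ± 0.60 (limma adjusted p = 0.784), VPS72, the chaperone that binds H2A.Z, by 0.29 ± 0.32 (adjusted p = 0.704) and the actin-related protein ACTL6A by 0.36 ± 0.29 (adjusted p = 0.605). ACTL6A.232 was higher in each AZA library (215, 184 and 263 CPM) than in any untreated one (124, 86.3 and 125 CPM). The increase was even over cultures (0.66, 0.89 and 0.90), with an edgeR log2 fold change of 0.82 ± 0.48 (adjusted p = 0.951). VPS72.503 was at 81.6, 89.9 and 88.1 CPM and then 82.9, 16.5 and 50.2 CPM. After TMM scaling only, it was lower in all 3 cultures and its groups were separate.

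At least 1 library held no count for 8 of 136 members, against 3.06% of the 7293 hairpins seen. A count of 0 still allows 3 counts, or 0.133 to 0.244 CPM at these depths, by counting error only. Besides RUVBL1.886, RUVBL1.988, RUVBL1.1337 and RUVBL2.744, these were DMAP1.1158, ING3.262, ING3.268 and VPS72.302. DMAP1.1158 was at 0 in both arms of culture 1 and had 1301 and 2629 counts untreated and 274 and 533 counts with AZA in cultures 2 and 3. Its guide pairs with coding exon 9 at chr1:44220038-44220059 on the plus strand.
DMAP1.1158: tTGAACATgtgcaccagctcct
ING3.262 had 2, 155 and 1021 counts untreated and 0, 348 and 1568 with AZA, close to one another within a culture and far apart between cultures. ING3.268 had 342, 0 and 0 counts untreated and 278, 0 and 40 with AZA. VPS72.302 was at 0 in untreated replicate 2 only, with 2137, 0 and 2327 counts untreated and 3185, 2130 and 4105 with AZA. DMAP1.1158, ING3.262 and RUVBL1.886 thus kept the order of the cultures in both arms. By contrast, RUVBL1.988, RUVBL2.744 and VPS72.302 had a library at 0 opposite 173 counts or more in the other arm.

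Spread between cultures was wide throughout. The median SD of log2 CPM over the 3 libraries was 1.16 for untreated and 0.65 for AZA members, against 0.94 and 0.56 for all hairpins, and 102 of 136 members (75.0%) had the smaller SD under AZA, against 73.1% of all. By role, the median untreated SD was 2.05 for the AAA+ ATPases and 0.70 for the MRG group.

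Neighbouring hairpins on overlapping sites of a transcript differed about as much as other hairpins of a gene. Only hairpins next to each other by the position number in their names were paired, and 17 such pairs lie under 22 bases apart. The gap between the mean log2 differences of a pair had a median of 1.11, against 1.04 for the 459 other pairs within a gene. Those other pairs include RUVBL2.41 with RUVBL2.51 and ING3.131 with ING3.144, which also overlap by their numbers but are not neighbours. Of the 17 pairs 7 shared their sign, which was not counted for the other pairs. By their position numbers EPC1.1814 and EPC1.1815 share 21 bases, and they had mean differences of -0.38 and -0.30.
EPC1.1814: tTGATATTgactagtatctgac
RUVBL1.1671 and RUVBL1.1672 share as many and had the widest gap, 4.07. C20orf20.1598 and C20orf20.1607 had mean differences of 0.41 and -1.16, and C20orf20.1062 and C20orf20.1065 of 0.41 and -0.70. DMAP1.709 and DMAP1.715 were both below 0, at -0.58 and -0.36. EPC1.2409 and EPC1.2419 were at 0.96 and -1.40, and EP400.2699 and EP400.2719 at 1.38 and 0.56. BRD8.403 and BRD8.418, which share 7 bases, were at -0.39 and -1.17. The pairs RUVBL1.886 with RUVBL1.905, RUVBL2.41 with RUVBL2.43, RUVBL2.43 with RUVBL2.51, RUVBL2.1440 with RUVBL2.1452, ING3.131 with ING3.133, ING3.133 with ING3.144, ING3.238 with ING3.239 and ING3.262 with ING3.268 had gaps of 0.22 to 1.78. No test was made of these pairs, which share hairpins and targets.

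By site, the 35 guides in coding sequence had a median difference of 0.48 and the 12 in the 3′ UTR of 0.06, with ranges of -1.76 to 4.99 and of -1.16 to 4.56 that overlapped almost wholly. All BRD8 and EPC1 guides are coding and most 3′ UTR guides target C20orf20, so site and gene cannot be told apart.

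Related chromatin genes in the pool gave the same absence of gene calls by limma. Of 3 further TIP60 or H2A.Z genes (MEAF6, MBTD1 and H2AFZ) 2 were above 0 and 0 reached an unadjusted p of 0.05 by limma. Of 11 INO80 genes, which belong to the sister remodeller that also uses RUVBL1, RUVBL2 and ACTL6A, 10 were above 0 (90.9%, against 70.3% of all genes), with a median gene difference of 0.48. An unadjusted p below 0.05 was found for 3 of them (INO80, ACTR5 and MCRS1), all higher under AZA, which is 27.3% against 14.9% of all genes. Of 14 genes of the other MYST acetyltransferases and their partners 9 were above 0 (64.3%), and 4 (KAT8, ING5, BRD1 and PHF17) had an unadjusted p below 0.05, all higher (28.6%). No gene of the 3 lists passed the adjusted threshold, and the median over all 912 genes was 0.25. For single hairpins the DESeq2 Wald test called 4 of INO80 (4.55%), 2 of the MYST list (1.83%) and 0 of the further TIP60 or H2A.Z genes, against a background of 1.86%. The edgeR exact test called 1, 1 and 0 (background 0.179%), and the quasi-likelihood test called 0 in each list.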

How the data were processed

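The authors amplified guide strands from genomic DNA and deposited raw counts per hairpin, 1 file per sample with gene symbols. Files list only hairpins seen, so an unlisted one counted as 0. The submitters' notes name CASAVA 1.9 and GRCh37. For the counter, the program is not given in the sources. Without molecular identifiers PCR duplicates remain, so a floor reflects counting error alone. Groups and numbers came from sample titles. Libraries held 12292575 to 22587662 counts.

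The count filter asked for over 0.5 CPM in 3 or more libraries, which 7262 of 7293 hairpins met, and all 136 members passed. Counts were scaled by TMM and tested with the quasi-likelihood test of edgeR 4.0.16 in R 4.3.3, two-sided, treatment being the only term (SE is the log2 fold change over the root of F). A gene's value is the mean of log2 CPM (prior count 2) over its hairpins, tested with limma 3.58.1, which stands in for the rotation test the study used on its hairpins. P-values were adjusted by Benjamini-Hochberg over the whole pool, with 0.05 as the threshold. Alternatives were DESeq2 1.42.0 (size factors, Wald test), library totals, other count filters and prior counts, the edgeR exact test, the replicate block, the median over hairpins and leaving out each library. The tests were checked on simulated data.

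Members, lists and the rule for naming were chosen with earlier results of these data known. The rule named, in each direction, the 6 members with the smallest p, all hairpins of the 3 genes with the smallest p, hairpins at 0 and overlapping hairpins. Others with separate groups, YEATS4.208 and YEATS4.417 were added after their values were seen. The hairpins with a shared seed were added outside this rule.

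The replicate numbers pair the libraries, since both arms came from 1 transduced culture. Deviations from group means correlated at 0.129, 0.114 and 0.140 for libraries of one number and at -0.0984 to -0.0251 otherwise, over 7262 hairpins. Within a group no library was a copy of another (chi-square over its degrees of freedom was 438 to 906), and libraries of different groups were not compared in this way.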

Additional observations from a re-analysis of the deposited data

How the results depend on the processing

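With 3 cultures, 1 library could decide a value, and hairpins near 0 weighed on gene means. No member hairpin passed edgeR's quasi-likelihood test under either other scaling, either other count filter, the edgeR exact test or the replicate block (0 called with the block), and leaving out each library gave 0 to 0. The DESeq2 Wald test called 4. Member genes called by limma stayed at 0 under every other setting tried, the replicate block included, and ranged from 0 to 1 when each library was left out (BRD8 without untreated replicate 1). In the pool, genes called were 11, but 20 with the replicate block or library totals, 3 with the median over hairpins, 0 without any 1 of the AZA libraries, and 25, 5 and 23 without untreated replicates 1, 2 and 3.

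Gene values below called level changed sign as follows, and the cause was not tested. With the median over hairpins RUVBL1 was -0.0015, RUVBL2 -0.050, KAT5 -0.47, YEATS4 -0.077 and VPS72 -0.54. With library totals EPC1 was 0.092. With each library left out, KAT5 ranged from -0.0073 to 0.47, EPC1 from -0.39 to 0.27, ING3 from -0.041 to 0.50, C20orf20 from -0.17 to 1.11, YEATS4 from -0.082 to 0.27, DMAP1 from -0.14 to 1.17 and VPS72 from -0.017 to 0.49. ING3 turned without untreated replicate 1 (-0.041) and without AZA replicate 3 (-0.023), and YEATS4 without untreated replicate 2 (-0.082) and without AZA replicate 1 (-0.014). KAT5 and C20orf20 turned without untreated replicate 1, and EPC1, DMAP1 and VPS72 without untreated replicate 2. Without a change of sign, EP400 ranged from 0.036 to 0.57 (0.35 with all libraries), TRRAP from 0.00053 to 0.68 (0.31), EPC2 from -0.60 to -0.032 (-0.23), SRCAP from 0.19 to 0.62 (0.34), ACTL6A from 0.17 to 0.58 (0.36) and RUVBL1 from 0.69 to 1.51 (1.16). The 12 hairpins named for a small p kept their sign under every setting tried. They were picked for that p on the same libraries, so a kept sign is no independent check. The replicate block changed no call of a member, but turned the fold change of 23 of 136 hairpins, all with an unadjusted edgeR p of 0.543 or more, among them RUVBL1.886 (-0.75 to 0.72), ING3.268 (-0.86 to 1.86), ING3.262 (0.34 to -0.34) and RUVBL1.485 (-0.28 to 0.025). The log2 differences of hairpins at 0 depend on the prior count, and why these hairpins were at 0 was not tested.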
